A study of Rattus norvegicus with 18 samples.

Results

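The 10 genes described here mark the kidney's blood vessels or carry signals to them. They are the growth factor Vegfa, the receptors Kdr, Flt1 and Tek, the transcription factor Sox17, the endothelial proteins Pecam1, Emcn and Vwf, and the leukocyte adhesion molecules Icam1 and Vcam1. Members were all probe sets, each a group of short probes for 1 transcript, that the platform annotation assigned to exactly 1 of these symbols. The 10 genes, of 10969 measured, had 24 such probe sets among 26202 on 3 array types (A, B and C), and every gene had 1 or more. Of the 24, 19 passed a filter on low signal and were tested, at least 1 for each gene.

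Total RNA of rat kidney was compared between congenic rats and Dahl salt-sensitive (S) rats, with 3 samples a strain. Dahl S rats become hypertensive when fed salt, and the congenic rats share that background apart from a part of chromosome 9, taken from a salt-resistant strain, in which a blood pressure locus lies. The labels used here give no diet, treatment, age or sex, and do not say whether each sample is an animal of its own. The p-values therefore set the strain difference against the scatter of these samples, and that scatter may be technical. In RNA of whole kidney, fewer cells of a type and less RNA per cell cannot be told apart.

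Vegfa is secreted in the kidney by podocytes and tubular cells and acts on endothelial cells through the receptor tyrosine kinase Kdr. Flt1 binds Vegfa tightly but signals weakly, and its soluble form acts as a decoy. Tek is the receptor of the angiopoietins, Sox17 is a transcription factor of arterial endothelium, and Pecam1, Emcn and Vwf are widely used endothelial markers. Icam1 and Vcam1 appear on activated endothelium, where NF-kappa B raises their transcription, and bind integrins of leukocytes.

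No member passed the adjusted threshold in limma, fitted over all 15721 tested probe sets, where 0 probe sets (0.0%) passed and the adjusted p = 0.9997 for the members. At an unadjusted limma p under 0.05 there were 3 of the 19 member probe sets, against 2.49% of all tested probe sets (391). They were 1 probe set each of Vegfa and Sox17, higher in congenic kidneys (1.17% of all tested probe sets), and 1 of Vcam1, lower (1.32%). Together with Emcn, which was higher, these also made up the 4 probe sets at which the strains did not overlap (7.08% of all tested probe sets, 3.59% with congenic higher and 3.49% with congenic lower). The 10 genes were picked with earlier results of these arrays known, Sox17 among them, so these shares are a description.

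**Figure D1:**
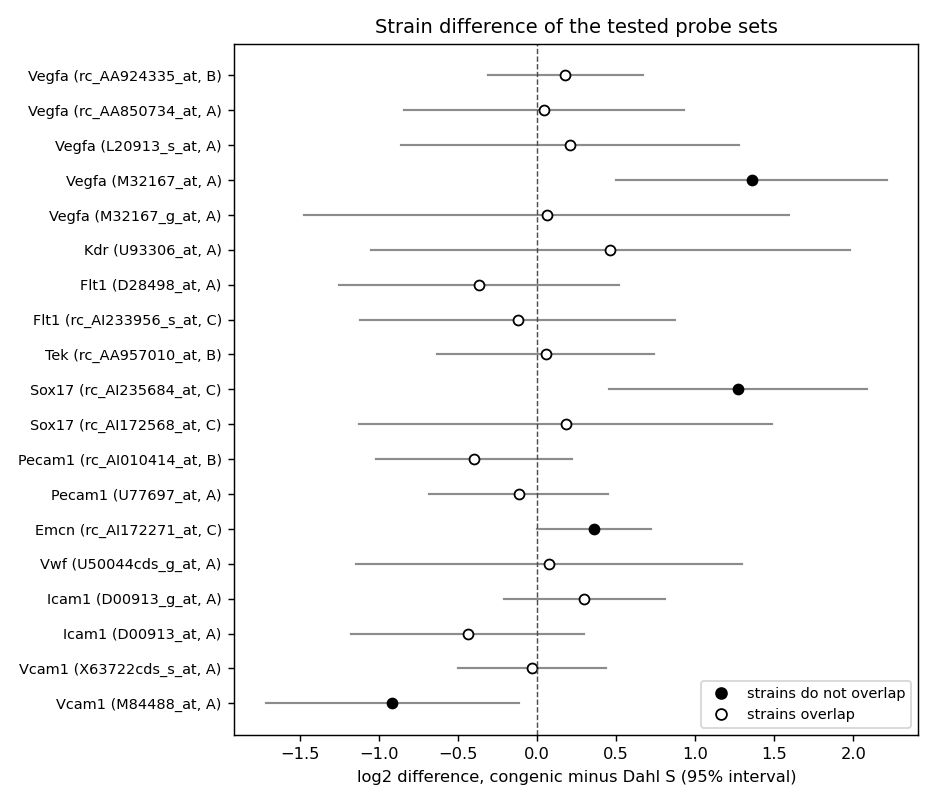
Log2 difference, congenic minus Dahl S, of the 19 tested member probe sets (x axis) with the limma 95% confidence interval, 1 row a probe set with its array type. Filled points mark the 4 probe sets at which the 3 congenic values lay outside the 3 Dahl S values; the intervals of the Vegfa, Sox17 and Vcam1 points among them do not reach 0.

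The DNA before the starts of Vegfa and Vcam1 is shown because each had a probe set at which the strains separated and each window held matches to motifs of known promoter factors. The windows hold the 250 bases before a RefSeq start in the GRCr8 assembly, chr9:22452604-22452853 on the plus strand for Vegfa, which has a second start in the table, and chr2:206742784-206743033 on the minus strand for Vcam1. Capitals mark matches on either strand to GGGCGG (the GC box bound by Sp1), to GGGNTTNCC (a kappa B-like motif) and to TATAAA (the TATA box).
Vegfa: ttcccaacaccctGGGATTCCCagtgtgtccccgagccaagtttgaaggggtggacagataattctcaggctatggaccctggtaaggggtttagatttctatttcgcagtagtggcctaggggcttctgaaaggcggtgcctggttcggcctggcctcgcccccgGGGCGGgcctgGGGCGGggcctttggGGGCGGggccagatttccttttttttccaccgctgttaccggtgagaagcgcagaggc
Vcam1: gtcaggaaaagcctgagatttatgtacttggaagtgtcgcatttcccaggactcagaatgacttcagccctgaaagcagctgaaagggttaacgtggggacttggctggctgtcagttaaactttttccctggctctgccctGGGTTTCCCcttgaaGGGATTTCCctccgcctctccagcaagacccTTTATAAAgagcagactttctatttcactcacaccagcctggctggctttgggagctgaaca

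The Vegfa window held 3 GC boxes and 1 kappa B-like match, and the Vcam1 window held 2 kappa B-like matches in a row and 2 overlapping TATA matches, 1 on each strand. Of 33469 such rat windows, 30.5% held the GC box motif, 4.0% the kappa B-like motif and 12.9% the TATA motif. The kappa B-like letters were chosen after the Vcam1 window had been seen. The windows before the start of Emcn, which also separated the strains, and before the second Vegfa start held 0 matches to these motifs and are not printed. Windows of 6 of the 10 members were in the table, Sox17 not among them. Kdr, Flt1 and Icam1, at which the strains overlapped, also held matches. The GC box was in each, the kappa B-like motif in Kdr, and the TATA motif in Flt1 and Icam1. The arrays do not measure binding to any of these windows.

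Vegfa, the ligand, is the 1 member encoded on chromosome 9. Its 5 probe sets all read higher on average in congenic kidneys, by +0.04 to +1.36 log2 units, and 1 stood apart. That probe set, M32167_at, had signals of 146.3, 71.7 and 78.9 in congenic samples 1, 2 and 3, against 37.4, 45.4 and 29.0 in Dahl S samples 1, 2 and 3. Every congenic sample lay above every Dahl S sample, and the signal was 2.56-fold higher in congenic kidneys (log2 difference +1.36, SE 0.37, n = 3 a strain, limma unadjusted p = 0.00635). M32167_g_at, which targets the same deposited transcript, read 82.3, 27.0 and 21.7 in congenic samples and 71.9, 30.4 and 19.5 in Dahl S samples. Here the strains overlapped, and the difference was +0.06 (95% interval -1.47 to +1.59).

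The brightest Vegfa probe set, rc_AA924335_at on type B, read 539.9, 759.7 and 547.4 in congenic samples, against 508.0, 665.9 and 458.3 in Dahl S samples. The strains overlapped there too (+0.18, 95% interval -0.31 to +0.67). L20913_s_at gave 207.2, 79.5 and 79.3 in congenic samples and 145.2, 100.7 and 58.3 in Dahl S samples (+0.21, SE 0.47), and rc_AA850734_at gave 235.6, 134.1 and 103.0 in congenic samples and 230.0, 121.8 and 106.4 in Dahl S samples (+0.04, SE 0.39). In these last 2 probe sets and in M32167_g_at, sample 1 was the highest of its strain in both strains, by more than the strains differed. All 3 changed sign without congenic sample 1, to -0.26, -0.29 and -0.53, or without Dahl S sample 3, to -0.15, -0.18 and -0.36. M32167_at stayed at +1.05 without both samples numbered 1.

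**Figure D2:**
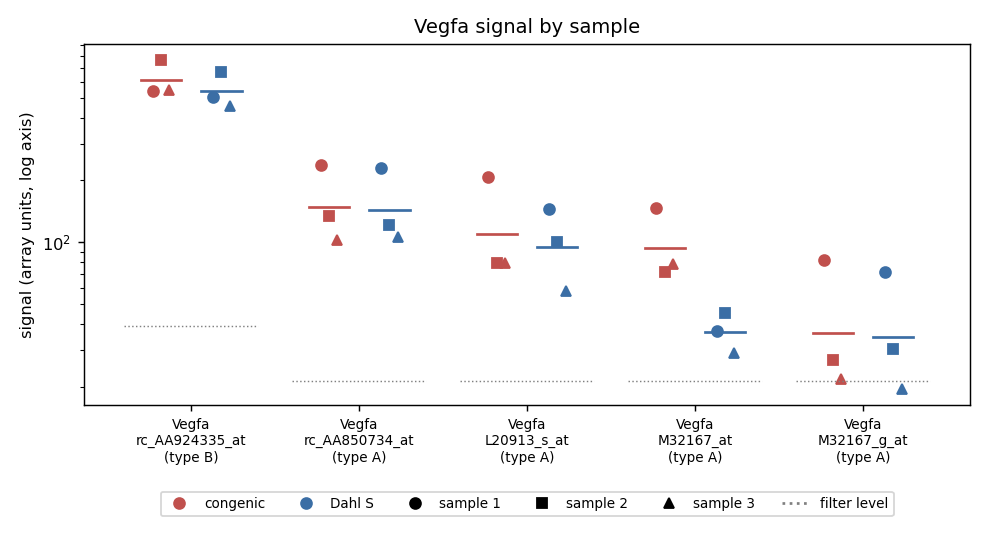
Signal of the 5 Vegfa probe sets (y axis, array units, log scale) in congenic (left of each pair) and Dahl S samples, with symbols for sample number, bars for the geometric mean and a dotted line for the filter level. At M32167_at all 3 congenic samples, 71.7 to 146.3, lie above the Dahl S samples, 29.0 to 45.4; at the others the strains overlap.

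Sample 1 was the highest of its strain in both strains at 5 of the 19 tested member probe sets, against 20.1% of all tested probe sets. The same samples had the highest median signal on every array type, and the part of that shift in the pattern was not tested. They also had the lowest ratio of 3 prime to 5 prime signal at the GAPDH control, a sign of RNA integrity or labelling. The log2 ratios were 0.11, 0.54 and 0.63 in congenic samples 1, 2 and 3 and 0.31, 0.65 and 0.68 in Dahl S samples 1, 2 and 3. At beta-actin they were 0.50, 1.07 and 1.35 in congenic samples and 0.49, 1.07 and 1.10 in Dahl S samples. At both controls the ratio rose with the sample number in both strains. The part of these ratios in the Vegfa values was not tested. Between strains the mean ratio differed by -0.12 at GAPDH and +0.09 at beta-actin (two-sided exact permutation p = 0.5 and 0.7, where the smallest p that 3 against 3 can give is 0.1).

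The genes around Vegfa, each at its brightest tested probe set, read in both directions. On the same measure Vegfa read +0.18. Of the 20 tested genes nearest to it in GRCr8 gene order, 10 on each side, 6 read higher and 14 lower in congenic kidneys (median -0.18, range -0.73 to +0.23), 0 had an unadjusted limma p under 0.05, and 1 did not overlap between strains (7.62% of all tested genes). No source used here gives the borders of the introgressed part, so whether Vegfa lies inside it was not tested. These neighbours were looked up after the Vegfa values had been seen.

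With all samples, the tested probe sets of the receptors differed by less than their SE. Kdr, the main signalling receptor of Vegfa, had 1 probe set, with signals of 23.4, 168.7 and 87.7 in congenic samples and 40.9, 47.5 and 68.1 in Dahl S samples. Congenic samples 1 and 2 held both its lowest and its highest value, and the difference of +0.46 (SE 0.66, 95% interval -1.05 to +1.98) rested on single samples. It turned to -0.17 without congenic sample 2, and was +1.25 without congenic sample 1 (limma unadjusted p = 0.0151) and +1.10 without both samples numbered 1 (limma unadjusted p = 0.0412).

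Flt1, the decoy-like receptor, read 73.8, 102.4 and 38.0 in congenic samples and 87.3, 72.7 and 97.2 in Dahl S samples at D28498_at (-0.37, SE 0.39). At rc_AI233956_s_at it read 63.7, 104.5 and 34.2 in congenic samples and 54.8, 76.8 and 69.9 in Dahl S samples (-0.12, SE 0.44). Both probe sets put congenic sample 2 highest and congenic sample 3 lowest, so the congenic values enclosed the Dahl S values. Without congenic sample 3 they read +0.03 and +0.29. The remaining Flt1 probe set, rc_AI073212_at, was too dim to be tested, with 30.0, 27.4 and 65.0 in congenic samples and 9.1, 29.0 and 14.3 in Dahl S samples.

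Tek, the angiopoietin receptor, read 115.4, 206.2 and 170.2 in congenic samples and 130.1, 157.6 and 177.1 in Dahl S samples at rc_AA957010_at (+0.05, 95% interval -0.63 to +0.74). Its other probe set, rc_AI058402_at, was not tested and ranged over 16.4 to 55.6 in congenic samples and 25.5 to 42.8 in Dahl S samples. The strains overlapped at every Kdr, Flt1 and Tek probe set, tested or not.

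Sox17 had, after Vegfa, the largest difference among the tested member probe sets, at 1 of its 4 probe sets. At rc_AI235684_at on type C the signal was 177.7, 217.0 and 175.1 in congenic samples, against 124.0, 44.6 and 87.4 in Dahl S samples. The congenic samples lay close together and all above the more scattered Dahl S samples, and the signal was 2.41-fold higher in congenic kidneys (log2 difference +1.27, SE 0.36, n = 3 a strain, limma unadjusted p = 0.00667). Without Dahl S sample 2, the lowest, the difference was +0.86.

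The other Sox17 probe sets were dimmer. On the same array type, rc_AI172568_at read 60.2, 34.2 and 32.5 in congenic samples and 32.2, 67.9 and 21.1 in Dahl S samples, with full overlap (+0.18, 95% interval -1.13 to +1.49). There Dahl S sample 2 was the highest of all samples, although it was the lowest at rc_AI235684_at. The remaining pair was below the filter: rc_AI031004_at lay between 26.1 and 32.3 in congenic samples and between 17.4 and 39.2 in Dahl S samples, and rc_AA799800_at between 3.2 and 4.8 in congenic samples and between 2.9 and 9.3 in Dahl S samples.

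Emcn, the sialoglycoprotein endomucin of capillary and venous endothelium, had 1 probe set and the smallest spread of the 4 that separated the strains. It read 398.8, 435.7 and 400.8 in congenic samples, against 358.6, 334.1 and 276.4 in Dahl S samples. The 3 congenic values lay above the 3 Dahl S values, a 1.28-fold difference (+0.36, SE 0.16, 95% interval -0.004 to +0.72, limma unadjusted p = 0.0520). The difference ranged from +0.25 to +0.46 over all alternative settings.

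Pecam1, the junctional adhesion protein CD31, pointed the other way and overlapped. At rc_AI010414_at it read 128.5, 164.4 and 205.9 in congenic samples, against 193.7, 260.3 and 198.1 in Dahl S samples (-0.40, SE 0.28, limma unadjusted p = 0.180). At U77697_at it read 113.6, 91.8 and 74.6 in congenic samples, against 105.6, 93.9 and 100.4 in Dahl S samples (-0.12, SE 0.25). Congenic sample 1 was the lowest of all samples at the first probe set and the highest at the second.

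Vwf, the clotting factor stored in endothelial granules, was near the bottom of the scale. U50044cds_at read 1.6 to 2.6 in congenic samples and 2.2 to 3.1 in Dahl S samples, at or under the floor of 3.1 in every sample, so no difference was measurable. U50044cds_g_at read 18.8, 30.2 and 18.5 in congenic samples and 16.0, 20.2 and 27.8 in Dahl S samples (+0.08, SE 0.53), and 4 of these 6 values were under 21.2, the filter level of type A. Vwf was therefore not shown to be above background.

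**Figure D3:**
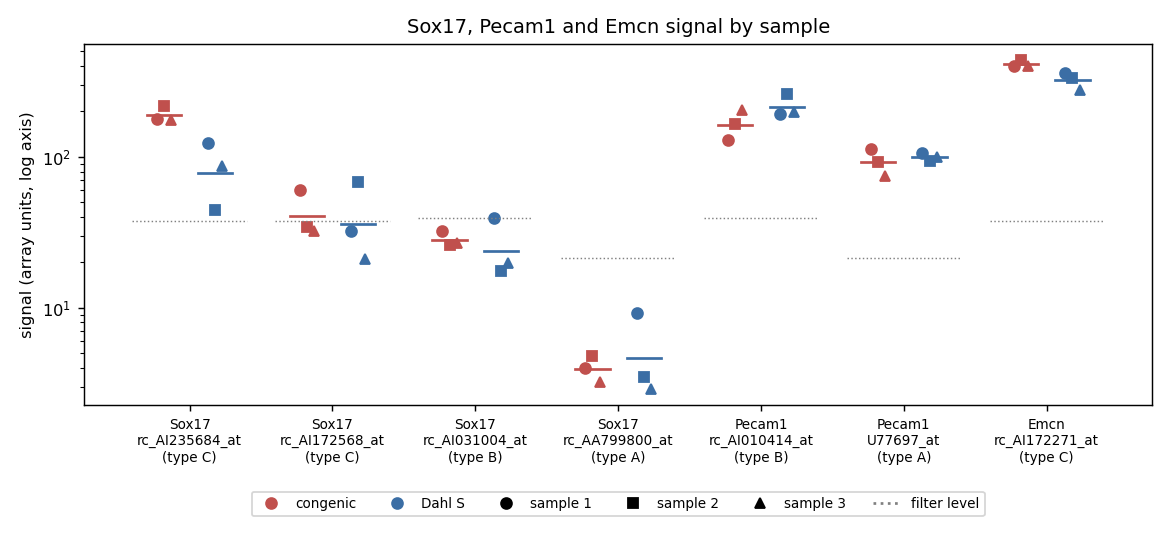
Signal of the Sox17, Pecam1 and Emcn probe sets (y axis, array units, log scale) in congenic (left of each pair) and Dahl S samples, with symbols for sample number, bars for the geometric mean and dotted lines for the filter level. The strains separate at Sox17 rc_AI235684_at and at Emcn, and overlap at both Pecam1 probe sets and the other 3 Sox17 probe sets.

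The adhesion molecules gave 2 probe sets each, whose estimates differed within each gene, though the difference between probe sets was not tested. Vcam1, the ligand of the integrin VLA-4 on leukocytes, read 26.7, 34.3 and 41.1 at M84488_at in congenic samples, against 61.5, 77.9 and 52.8 in Dahl S samples. All 3 congenic samples were below all Dahl S samples, 1.89-fold lower (log2 difference -0.92, SE 0.35, n = 3 a strain, limma unadjusted p = 0.0299). The limma unadjusted p rose above 0.05 under quantile normalization (0.0547) and median scaling (0.0622), without congenic sample 1 (0.0826), Dahl S sample 1 (0.0645) or Dahl S sample 2 (0.125), and without both samples numbered 1 (0.126). The brighter X63722cds_s_at read 122.1, 113.1 and 104.1 in congenic samples and 119.9, 109.4 and 117.0 in Dahl S samples, which overlapped (-0.03, 95% interval -0.50 to +0.44). That interval overlaps the 95% interval at M84488_at, which was -1.72 to -0.11.

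Icam1, the ligand of the beta-2 integrins, was the 1 member whose tested probe sets had opposite signs, although both target the same deposited transcript. D00913_g_at read 154.6, 181.9 and 132.1 in congenic samples and 119.0, 148.3 and 113.1 in Dahl S samples (+0.30, SE 0.22). D00913_at read 56.3, 69.1 and 38.4 in congenic samples and 81.3, 64.3 and 71.2 in Dahl S samples (-0.44, SE 0.32). The strains overlapped at both, and the limma unadjusted p was 0.213 and 0.207.

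**Figure D4:**
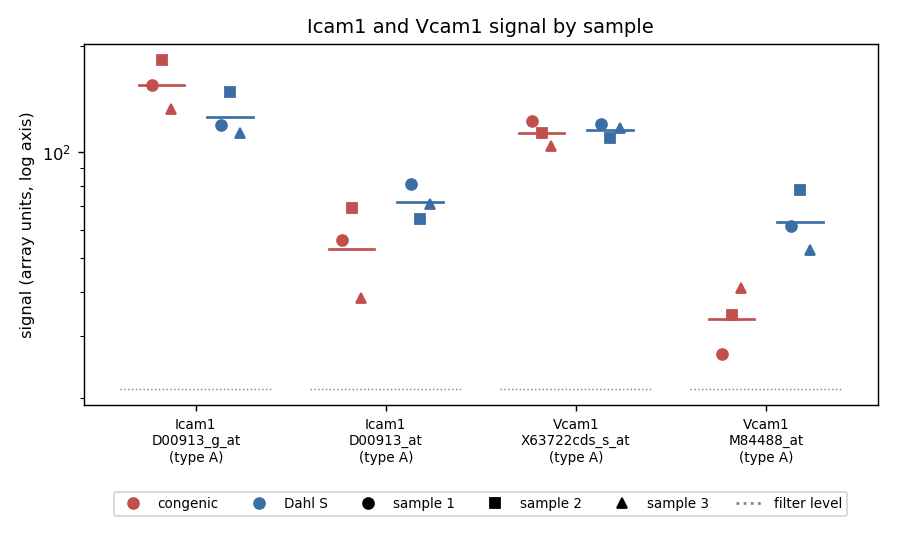
Signal of the Icam1 and Vcam1 probe sets (y axis, array units, log scale) in congenic (left of each pair) and Dahl S samples, with symbols for sample number, bars for the geometric mean and a dotted line for the filter level. The strains separate at Vcam1 M84488_at, 26.7 to 41.1 in congenic and 52.8 to 77.9 in Dahl S samples, and overlap at the other 3.

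With each gene represented by its brightest tested probe set, 7 of the 10 members read higher and 3 lower in congenic kidneys, with a median log2 difference of +0.13, against -0.01 over all 8168 genes, of which 48.9% read higher. The median was -0.03 without congenic sample 2 and +0.33 without Dahl S sample 2. For Vegfa and Vcam1 the brightest probe set was one at which the strains overlapped.

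The rest of the VEGF axis showed no common direction. Of 20 listed ligands, receptors and hypoxia regulators, 14 genes were tested, 8 higher and 6 lower (median +0.01), with 0 at an unadjusted limma p under 0.05, against 2.35% of all tested genes. The 2 with the smallest p were Egln1, the prolyl hydroxylase that marks HIF-alpha for destruction, and Angpt2, an angiopoietin that antagonises Tek. Egln1 read 334.6, 604.0 and 494.0 in congenic samples, against 615.5, 666.7 and 647.8 in Dahl S samples, without overlap (-0.47, SE 0.23). It was the 1 of these 14 genes without overlap, where 7.62% of all tested genes did not overlap. Angpt2 overlapped (+0.27, SE 0.38). Tie1, the partner receptor of Tek, the ligand Vegfc, the co-receptor Nrp2 and Angptl4 were too dim to be tested.

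Among 31 tested genes of 43 other endothelial genes, 15 read higher and 16 lower (median -0.002). Their summed signal was 7766 to 7883 in congenic samples and 8106 to 9310 in Dahl S samples, lower in every congenic sample. Such a sum follows its brightest genes, while the median counts each gene alike. Mgp and Aplnr were among the brightest and read 909.1 to 1182.2 and 558.6 to 808.0 in congenic samples. In Dahl S samples they read 1350.8 to 1800.4 and 955.5 to 1229.2. At Eng, the brightest of the list, the strains overlapped (+0.14, SE 0.18). None of the 31 genes passed the adjusted threshold in limma. Of them, 3 had an unadjusted limma p under 0.05, all lower in congenic kidneys, against 1.36% of all genes. They were Mgp, an inhibitor of calcification made by vascular cells (-0.60, SE 0.17), Egfl7, a secreted endothelial matrix protein (-1.24, SE 0.40), and Aplnr, the apelin receptor (-0.62, SE 0.20). Egfl7 read 59.8, 53.5 and 62.1 in congenic samples, against 160.7, 184.8 and 87.5 in Dahl S samples. At all 3 genes the strains did not overlap (3.8% of all genes were lower without overlap), but a second Egfl7 probe set read -0.10 and the 3 Aplnr probe sets ranged from -0.62 to +0.43. Cdh5, the endothelial cadherin, read -0.28 (SE 0.20), Esam, a junction protein, +0.02 (SE 0.18), and Nos3, the endothelial nitric oxide synthase, +0.11 (SE 0.24). These 3 were chosen after their values were seen.

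Of 22 listed genes of leukocyte adhesion and its induction 12 were tested, 3 higher and 9 lower (median -0.18). Of these, 1 had an unadjusted limma p under 0.05, on the lower side, against 1.36% of all genes. It was Irf1, an interferon-induced transcription factor, with 98.5, 115.4 and 109.6 in congenic samples, against 126.5, 202.8 and 156.9 in Dahl S samples (-0.56, SE 0.24). Irf1 and Nfkb1, an NF-kappa B subunit, were the 2 genes of this list that did not overlap between strains, both lower (3.8% of all genes). Nfkb1 (-0.45, SE 0.27) was named after its values were seen. The strains overlapped at Rela, another NF-kappa B subunit (+0.05, SE 0.20), and at Nfkbia, an NF-kappa B inhibitor (-0.18, SE 0.38). The endothelial selectin Sele and the cytokines Tnf and Il6 were among the 6 genes on the arrays that were too dim to be tested.

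**Figure D5:**
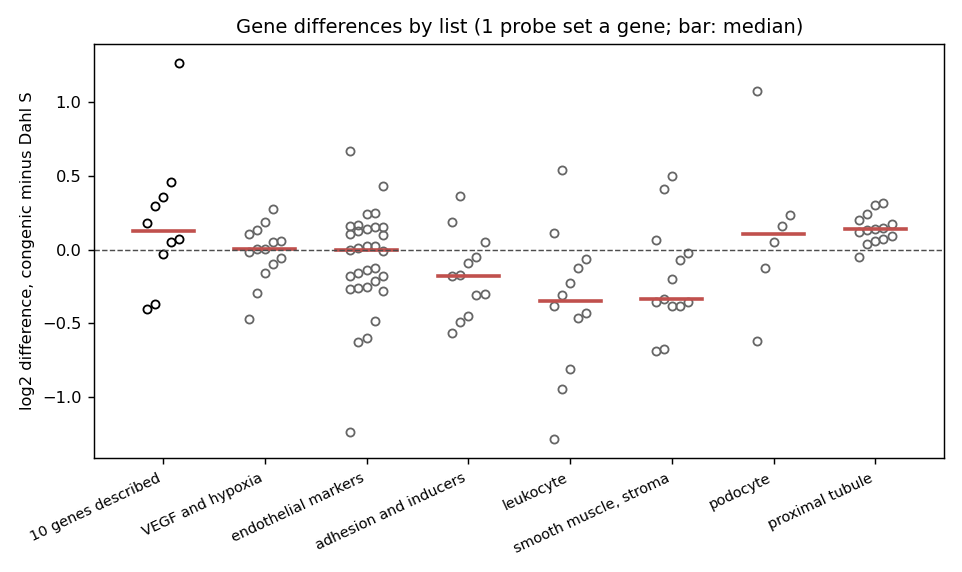
Log2 difference, congenic minus Dahl S (y axis), of each tested gene in the 10 genes described and 7 lists (x axis), 1 point a gene by its brightest tested probe set, with bars for the medians. The medians are +0.13 for the 10 genes, -0.002 for the endothelial list and -0.34 for the leukocyte list.

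Leukocytes, smooth muscle and stroma also express some of these genes, and none of their markers passed the adjusted threshold in limma. Over all tested genes, 48.9% read higher, and 1.36% were lower at an unadjusted limma p under 0.05. Leukocytes also make Pecam1 and Icam1. Their markers read lower in 10 of 12 tested genes of 16 on the arrays (median -0.34), with summed signals of 4734 to 5003 in congenic samples and 5255 to 6703 in Dahl S samples. Coro1a, an actin regulator of leukocytes, was the 1 with an unadjusted limma p under 0.05 (-0.81, SE 0.33), and a second probe set read -1.40. Smooth muscle and stroma markers read lower in 10 of 13 tested genes of 15 on the arrays (median -0.33), with sums of 3048 to 3602 in congenic samples and 4230 to 4747 in Dahl S samples. The 3 with an unadjusted limma p under 0.05 were all lower: the proteoglycan Dcn (-0.69, SE 0.17), the collagen chain Col1a1 (-0.38, SE 0.13) and the smooth muscle actin Acta2 (-0.67, SE 0.27). Both sums were below the Dahl S range in every congenic sample. The leukocyte genes Ptprc, Cd3d, Cd8a and Cd163 and the smooth muscle genes Cnn1 and Des were too dim to be tested. Of the members these cells also make, Pecam1 read lower at both probe sets, Icam1 higher at 1 and lower at the other, and Vcam1 lower at 1 and near 0 at the brighter one. The part of these cells in those values was not tested.

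Podocyte markers, from cells that make Vegfa, read higher in 4 of 6 tested genes of 7 on the arrays (median +0.11). Their sums were 2545 to 3039 in congenic samples and 2273 to 2722 in Dahl S samples. Actn4 held most of each sum, with 1697.2 to 2089.6 in congenic samples and 1606.5 to 1944.0 in Dahl S samples, so the sums say little of the other podocyte genes. No podocyte or proximal tubule gene had an unadjusted limma p under 0.05. The smallest were those of Podxl, the podocyte sialomucin podocalyxin (+1.08, SE 0.54), whose Dahl S sample 3 read 55.6 against 266.1 to 365.7 in the others, and Ptn, a heparin-binding growth factor (-0.62, SE 0.53). Proximal tubule markers read higher in 13 of 14 (median +0.14), with sums of 78753 to 93256 in congenic samples and 75905 to 80716 in Dahl S samples, and the smallest p for Pck1, the gluconeogenic carboxykinase (+0.31, SE 0.16), and Kap (+0.24, SE 0.14). Kap, an androgen-regulated protein of the proximal tubule that marks the tissue as kidney, read 12552 to 15730 in congenic samples and 11013 to 12069 in Dahl S samples. Platelet markers, a second source of Vwf and Pecam1, had 2 tested genes (Pf4, Itgb3 and Gp5 were too dim), Itga2b at +0.09 (SE 0.19) and Gp9 at -0.19 (SE 0.47), with sums of 210.5 to 235.2 in congenic samples and 196.6 to 265.3 in Dahl S samples. Red cell markers summed to 10113 to 19132 in congenic samples and 12585 to 52231 in Dahl S samples, the top value from Dahl S sample 3. The smallest p there were those of the globins Hba-a1 (-0.67, SE 0.52) and Hba-a3 (-0.58, SE 0.59).

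The genes whose profiles lay closest to Sox17 over the 6 samples were Snrk, Phospho2 and Slc6a7, with a mean absolute difference between centred log2 signals of 0.20, 0.21 and 0.21. For Pecam1 they were Tmem87a, Sf3b5 and Ywhag, at 0.06, 0.09 and 0.09. These were picked as the closest of 4215 genes over 6 samples, so close profiles are to be found for any gene, and they say nothing of shared control.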

How the data were processed

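Kidney RNA of 6 samples had been hybridised to 3 array types, 18 arrays in all. The deposited values are intensity values on a linear scale, 1 a probe set. No source used here names the software that produced them. From the values, the authors' deposited intensities had been scaled to a mean, after trimming 2% at each end, of 150.1 to 150.2 on every array, so they were used without further scaling. The medians still differed. In congenic sample 1 and Dahl S sample 1 they were 45.9 and 45.5 on type A, against 34.8 to 39.4 in the other samples. On type B they were 78.3 and 78.5, against 60.4 to 71.8, and on type C 75.6 and 74.6, against 61.1 to 62.7. The tables used here hold no detection calls.

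Groups and sample numbers came from the sample titles, and the tags in the labels joined a sample's arrays. Values below the 10th percentile of their array type (3.1, 6.8 and 4.9) were raised to it before log2. Control probe sets were left out, and probe sets whose mean log2 signal fell under the 40th percentile for that type (signals of 21.2, 39.3 and 37.7 on types A, B and C) were not tested. The strain difference (congenic minus Dahl S) was fitted by limma 3.58.1 under R 4.3.3, using lmFit and trended eBayes, with Benjamini-Hochberg adjustment over the 15721 tested probe sets and a threshold of 0.05. The fit was tested on simulated data. Symbols came from GEO's platform annotation; of 18178 probe sets with 1 symbol, 18122 matched the GRCr8 table by gene ID. Promoter sequence came from RefSeq on GRCr8. Fold differences are between geometric means of floored signals. The number of arrays limits the precision.

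Members and lists were chosen with earlier results of these data known. Named genes were all members, list genes with an unadjusted p under 0.05 (otherwise the 2 with the smallest p), and the 3 genes closest in profile to Sox17 and to Pecam1 among those with an SD of at least 0.3. Figures were drawn with matplotlib 3.10.9.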

Additional observations from a re-analysis of the deposited data

How the results depend on the processing

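Across the alternatives (floor, filter, quantile or median scaling, no trend, the sample number as a block, adjustment within array type, each sample left out, both samples numbered 1 left out), limma called 0 probe sets, members included. Of 304 values of single member probe sets under these settings, 22 changed sign, all with samples left out, and 0 passed. Settings of the filter, trend, block or adjustment leave the difference as it is, so no sign could change there. Probe sets under the filter of a setting had no p there and could not pass. M32167_at of Vegfa stayed between +1.04 and +1.55, rc_AI235684_at of Sox17 between +0.86 and +1.64, and M84488_at of Vcam1 between -1.06 and -0.75. Their unadjusted limma p ranged over 0.00428 to 0.0483 for Vegfa, 0.00106 to 0.0283 for Sox17 and 0.0096 to 0.126 for Vcam1. For the changes of sign below the cause was not tested, beyond the fewer samples. Without both samples numbered 1, M32167_g_at of Vegfa read -0.008, U50044cds_g_at of Vwf -0.004 and rc_AI172568_at of Sox17 -0.18.

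With 1 sample left out at a time, the differences ranged over -0.69 to +0.030 for Flt1 D28498_at, -0.51 to +0.29 for Flt1 rc_AI233956_s_at, -0.17 to +1.25 for Kdr U93306_at, -0.27 to +0.032 for Pecam1 U77697_at, -0.20 to +0.64 for Sox17 rc_AI172568_at, -0.13 to +0.28 for Tek rc_AA957010_at, -0.088 to +0.027 for Vcam1 X63722cds_s_at, -0.26 to +0.51 for Vegfa L20913_s_at, -0.53 to +0.58 for Vegfa M32167_g_at, -0.29 to +0.38 for Vegfa rc_AA850734_at and -0.16 to +0.28 for Vwf U50044cds_g_at.

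The count of all probe sets with an unadjusted limma p under 0.05 was 798 with no filter, 259 with a filter at the 60th percentile (more and fewer probe sets tested), 819 with the replicate block and 344 to 592 with 1 sample left out. With the filter at the 60th percentile, 1 of 11 tested member probe sets had such a p, against 2.47% of all tested probe sets. M32167_at and M84488_at were under that filter and had no p. With the replicate block it was 4 of 19 (5.21% of all), and with 1 sample left out 2 to 3 (2.19% to 3.77% of all). The median over the 10 genes was -0.033 to +0.333 with 1 sample left out, and +0.06 when a gene's tested probe sets were averaged. Without both samples numbered 1, a count added after seeing the data, 6 member probe sets did not overlap, where 29.9% of all tested probe sets did not.

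Deviations from the strain means correlated by 0.45, 0.08 and 0.18 between samples sharing numbers 1, 2 and 3. Between samples of different numbers the correlations were -0.30 to +0.15. By these correlations number 1 stood apart, and the control ratios rose with the sample number in both strains. Whether the numbers mark joint processing was not tested, and they were not taken to pair the samples in the main fit. With the sample number as a block, 5.21% of all tested probe sets had an unadjusted limma p under 0.05, against 2.49% without it. The block ended or made no call. With 3 samples a strain the median 95% interval of a member's difference reached 0.81 log2 units to either side.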
